A study of Caenorhabditis elegans with 2 samples.

Results

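Of the 1550 reproducible binding sites of the GFP-tagged protein B0261.1, 254 had their summit at the start of a protein-coding gene (16.4%, 95% Wilson interval 14.6 to 18.3%). A site was counted as a promoter peak when its summit, the single base of highest signal, lay from 500 bp upstream to 100 bp downstream of an annotated start, and over 100 bp from every gene of a tRNA, tRNA pseudogene, snoRNA, snRNA, spliced leader RNA or rRNA. Here these are called small noncoding RNA genes. The window alone held 322 peaks, and 68 were left out because a small noncoding RNA gene was near. The 254 peaks lay at 250 separate sites and at 305 genes, in 309 pairs of a peak and a gene, since 1 peak can lie in the windows of neighbouring genes. Within the authors' list promoter peaks were chosen by the position of the summit, and the height of the signal did not enter. The choice was made with earlier results of these data known.

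The sites came from ChIP-seq, in which DNA bound to a protein is precipitated with an antibody and sequenced. The samples were 2 biological replicates, numbered 1 and 3, of whole young adult C. elegans of mixed sex, collected 64 hours after their growth was synchronised by starving hatched first-stage larvae. The strain, OP662, carries the allele unc-119(tm4063) on chromosome III and the transgene wgIs662, which encodes B0261.1 with GFP and FLAG at its C-terminal end. Chromatin was sheared by sonication and precipitated with antibodies against GFP. All worms carried the tag, so there is 1 group and no contrast between conditions, and control libraries were not used here. The labels name no promoter for the transgene, and in whole worms the tissue that contributes a site is unknown. B0261.1, listed as vep-1 in the annotation, has a Myb-like domain, a fold through which many transcription factors bind DNA.

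A promoter is the stretch of DNA where RNA polymerase II is recruited to make a messenger RNA. In C. elegans many messenger RNAs lose their first segment, which is replaced by a short spliced leader, so an annotated start is often the splice site and lies downstream of the base where transcription begins. Many worm genes also stand back to back with a neighbour on the other strand, so that a single intergenic stretch serves a pair of divergent genes. RNA polymerase III makes tRNAs, U6 and other small RNAs, and the genes of these RNAs often lie between or inside protein-coding genes.

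The sequences around the 5 summits of highest signal are given first. Their signals ran from 1187 to 4106, and the next strongest promoter peak had 1036, so no gap sets the 5 apart. Each is the 101 bp centred on the summit in build ce11, read 5′ to 3′ on the strand of the gene. T13C5.6 lies at chrX:6207781-6207881 on the minus strand, W08A12.2 at chrV:3686108-3686208 on the minus strand and pcrg-1 at chrII:7200159-7200259 on the plus strand. W01D2.3 lies at chrII:14804442-14804542 on the minus strand and ZK816.3 at chrX:3348007-3348107 on the plus strand. Capitals mark matches, on either strand, to the sequences searched. These were ACCACT (as AGTGGT on the other strand) in T13C5.6, W08A12.2 and ZK816.3, the B box of tRNA genes in ZK816.3, TATAAA in pcrg-1, TTTCAG (as CTGAAA) in W08A12.2, and GAGAGA and TAACNG (as CAGTTA) in T13C5.6. ZK816.3 also holds AGTGTA (as TACACT), and W01D2.3 holds none.
T13C5.6: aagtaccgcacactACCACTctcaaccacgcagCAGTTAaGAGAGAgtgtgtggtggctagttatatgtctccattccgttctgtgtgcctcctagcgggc
W08A12.2: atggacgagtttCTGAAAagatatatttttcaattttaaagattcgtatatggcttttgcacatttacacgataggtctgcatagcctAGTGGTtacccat
pcrg-1: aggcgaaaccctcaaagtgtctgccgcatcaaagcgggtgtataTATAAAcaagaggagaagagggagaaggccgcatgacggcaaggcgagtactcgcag
W01D2.3: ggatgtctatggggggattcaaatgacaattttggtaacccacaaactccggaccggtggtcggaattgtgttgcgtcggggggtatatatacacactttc
ZK816.3: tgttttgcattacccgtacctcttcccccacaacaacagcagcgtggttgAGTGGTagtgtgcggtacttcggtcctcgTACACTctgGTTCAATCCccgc

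The next set comes from the 4 strongest peaks at genes of cytosolic ribosomal proteins, which build the ribosome and are the gene list with the most promoter peaks. The rpl-15 window lies at chrIV:654872-654972 on the minus strand and is shared with K11H12.8. The rpl-35 window lies at chrIII:7854640-7854740, that of rpl-3 at chrIII:3867517-3867617 and that of rps-3A at chrIII:4475605-4475705, all on the plus strand. Capitals mark the searched sequences as above, and in addition the word TACGGT, then GAGCGT, then AGTGTA, then GCGACG, then GCATTG. These 5 words of 6 bases were read off the printed windows, so their presence in these 4 is how they were chosen. In rpl-15 the run CGAGTGTA holds both CACTCG (as CGAGTG) and AGTGTA, and in rpl-3 the run GTGCGCCGAGTG holds GCGCAC and CACTCG side by side on the other strand.
rpl-15: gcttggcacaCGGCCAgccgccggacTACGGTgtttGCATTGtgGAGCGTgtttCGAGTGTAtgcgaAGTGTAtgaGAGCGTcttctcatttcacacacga
rpl-35: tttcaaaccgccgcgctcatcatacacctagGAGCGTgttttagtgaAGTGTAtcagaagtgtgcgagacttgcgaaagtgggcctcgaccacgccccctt
rpl-3: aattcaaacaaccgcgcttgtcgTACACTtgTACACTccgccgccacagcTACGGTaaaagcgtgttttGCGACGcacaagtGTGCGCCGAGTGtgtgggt
rps-3A: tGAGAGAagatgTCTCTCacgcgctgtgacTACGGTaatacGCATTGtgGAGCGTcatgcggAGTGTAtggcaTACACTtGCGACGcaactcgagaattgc

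Most promoter peaks stood low in the list of reproducible peaks. Their median signal, in the authors' unit without a stated normalisation, was 238 (quartiles 204 to 309, range 179 to 4106). It was 322 for the 642 reproducible peaks elsewhere and 2312 for the 654 peaks at small noncoding RNA genes. With the list cut by signal into 5 steps of 310 peaks each, from the highest to the lowest, promoter peaks numbered 1, 6, 30, 107 and 110. The upper 775 peaks held 18 of them (2.32%, Wilson interval 1.47 to 3.64%). A signal above 300 was reached by 73 promoter peaks, above 500 by 19 and above 1000 by 6. Most promoter peaks were therefore sites of the lower ranks, with a short tail of strong ones.

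**Figure D1:**
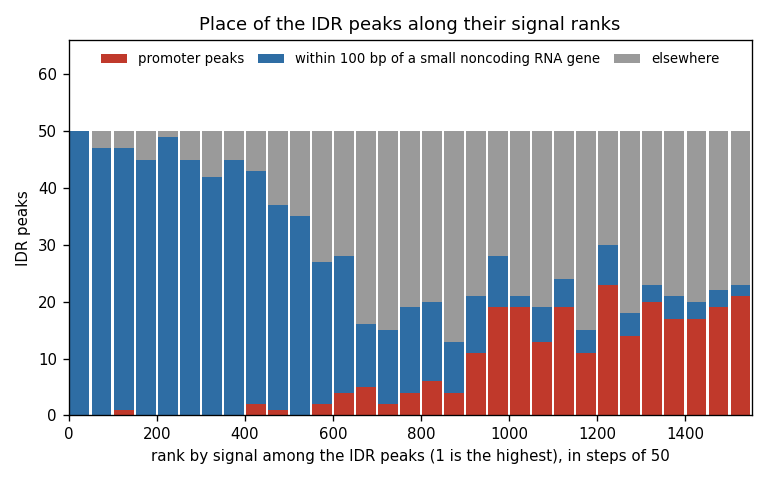
Number of peaks in each step of 50 ranks by signal, for promoter peaks (red, at the bottom), peaks within 100 bp of a small noncoding RNA gene (blue) and peaks elsewhere (grey). Promoter peaks are rare on the left, with 1 among ranks 1 to 310, and numerous on the right, with 110 among ranks 1241 to 1550.

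A pooled region at a promoter was a reproducible peak about as often as any pooled region was, but the 2 sets are unlike. The rule keeps summits near small noncoding RNA genes out of the promoter set, while all pooled regions and all reproducible peaks include them. Of the 1550 reproducible peaks 654 lay near such genes, 254 were promoter peaks and 642 lay elsewhere. The shares below were not computed without the 654, so they do not tell whether promoters exceed the remaining regions. The pooled list held 30000 regions, of which 5.10% had the summit of a reproducible peak within 100 bp. Among its 5285 regions placed at promoters by the same rule, 248 did (4.69%). The promoter share was 16.4% of the reproducible peaks, against 34.4% (32.1 to 36.8%) of the 1550 regions ranked next by signal and 17.7% (17.3 to 18.1%) of all 28470 background regions, which are the pooled regions with no reproducible summit within 100 bp. In the 1550 highest regions of each replicate's own list the promoter share was 8.13% in replicate 1 and 14.4% in replicate 3 (11.3% ± 4.43, SD, n = 2). Of the 19971 protein-coding genes 1.53% had a promoter peak, and of the 4917 with any pooled region in the window 6.20% did.

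The strongest promoter peak lay before T13C5.6, a gene on X annotated with a phosphatidic acid phosphatase domain. Its summit lay at 6207831, −144 bp from the start, with a signal of 4106. It was rank 135 in replicate 1 (signal 704) and rank 125 in replicate 3 (signal 3409), each replicate having its own scale. W08A12.2 on V, annotated as a neuropeptide-like protein, followed with a signal of 1944 at 3686158, −266 bp from the start (383 in replicate 1, 1657 in replicate 3). The summit near pcrg-1 on II, a homologue of the Parkin coregulated gene, had 1918 at 7200209, −340 bp from the start (368 in replicate 1, 1578 in replicate 3). W01D2.3 on II, annotated as a receptor expression-enhancing protein, had 1635 at 14804492, −183 bp from the start (324 in replicate 1, 1399 in replicate 3). ZK816.3 on X, uncharacterised in the annotation, had 1187 at 3348057, −334 bp from the start (238 in replicate 1, 976 in replicate 3). In both replicates these 5 kept this order, and both placed each of them at rank 578 or better.

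Noncoding RNA genes outside the classes used to choose the peaks lay close to 4 of these 5. The summit at T13C5.6 lay 4 bp from C14F11.14, that at W01D2.3 10 bp from W01D2.7 and that at ZK816.3 inside ZK816.8, all unclassified noncoding RNA genes. The strongest summit before pcrg-1 lay 24 bp from mrpr-1, whose symbol stands for the RNA of RNase MRP, an enzyme that cuts precursors of ribosomal RNA. Among all promoter peaks 27 lay within 100 bp of such a gene (10.6%, 7.41 to 15.0%), against 5.58% (4.98 to 6.25%) of background promoter regions. These were 25 unclassified noncoding RNA genes, the microRNA gene mir-5549 beside eef-1A.1, and the piRNA gene 21ur-12279 beside atp-1. Their median signal was 278, against 235 for the other 227 promoter peaks, and 7 of the 25 strongest were among them. A promoter peak at such a place cannot be assigned by its position to the protein-coding gene or to the noncoding one.

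Below the first 5 came further single genes and the first ribosomal protein genes. Y43F8B.17 (an M48 family peptidase) had a signal of 1036, ZK622.4 (a LIM zinc-binding domain) 863, C01G10.14 (annotated as a major sperm protein) 779 and W09G10.9 759. The summit at ZK622.4 lay 113 bp from the tRNA gene ZK622.t1 and had no match in replicate 3. The one at C01G10.14 had none in replicate 1. These are the strongest promoter peaks that lacked a match in one replicate. Further down stood tasp-1 (631), which encodes a homologue of the protease taspase, rsf-1 (561), Y22D7AL.10 (542), the mitochondrial heat shock protein of 10 kDa, Y39B6A.43 (497) and cdc-48.1 (485), an ATPase that pulls ubiquitinated proteins out of complexes.

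ACCACT, frequent at the peaks of small noncoding RNA genes (31.3% within 50 bp), and the B box also stood at some of the strong promoter peaks. ACCACT lay within 50 bp of the summit at 3 of the 5 strongest promoter peaks and 6 of the 25 strongest, the other 3 being C01G10.14, tasp-1 and rsf-1. It was held by 5.91% of all promoter peaks, 3.08% of background promoter regions and 13.6% of reproducible peaks elsewhere. ACCACT came from earlier results on these peaks, so these counts are a description only. Within 50 bp the B box was held by 12.0% of reproducible peaks elsewhere and 8.10% of those at small noncoding RNA genes. The B box lay within 100 bp at 2 of the 5 strongest, T13C5.6 and ZK816.3, and at 4 of the 25, with Y43F8B.17 and the weaker summit of W08A12.2. Over all promoter peaks the B box within 100 bp was found at 9.06% (6.11 to 13.2%), against 6.93% (6.26 to 7.66%) of background promoter regions, and these intervals overlap.

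A pair of summits was found at 4 genes. W01D2.3 had a weaker summit at 14804700 (signal 754) at −391 bp, W08A12.2 one at 3686368 (631) at −476 bp, and pcrg-1 one at 7200411 (469) at −138 bp. In these 3 genes both summits carry the same region boundaries, so the authors' list gives them as 2 summits of 1 region. At snu-23, a zinc finger protein of the spliceosome by homology, the summits lay at −114 bp (389) and −329 bp (236) in overlapping regions, and the weaker one had no match in either replicate.

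Most promoter peaks lay outside genes and before a single start. The summit was between annotated genes at 218 promoter peaks (85.8%, 81.0 to 89.6%), against 68.1% (66.8 to 69.4%) of background promoter regions. It was in a coding exon at 9 (3.54%, 1.88 to 6.60%), against 15.4% (14.5 to 16.4%). A single start was served by 199 promoter peaks (78.3%), a divergent pair by 54 (21.3%, 16.7 to 26.7%), and 1 lay before 2 starts of the same strand. The divergent share was 20.6% (17.4 to 24.3%) in the next-ranked promoter regions and 11.7% (10.9 to 12.6%) in all background promoter regions. In the replicates' own top lists it was 13.5% and 22.4% (SD 6.31 percentage points, n = 2). The divergent share of promoter peaks thus had an interval above that of the whole background and around that of the regions ranked next.

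At divergent pairs the summit lay near the middle, a place that the rule partly fixes. The starts of the 54 pairs were a median of 452.5 bp apart (quartiles 347 to 574.5 bp, range 15 to 814 bp). The summit lay between both starts in 50 of 54 (92.6%) and a median of 42.5 bp from the midpoint. A pair counted as divergent only where the summit lay in the windows of both starts, which holds it near the middle of a wide gap. These values describe the pairs and were not set beside those of background regions. The pair of highest signal was rpl-15 with K11H12.8, a growth hormone-inducible transmembrane protein, with 797 (126 in replicate 1, 691 in replicate 3). Next were rps-19 with hsr-9 (502), rpl-18A with Y17G9B.5 (469), cct-8 with Y55F3AR.2 (438) and C47E8.4 with hsp-90 (366). In each of these 5 pairs 1 gene encodes a ribosomal protein or a chaperone, while the partner does not. Position does not tell which gene of a pair a site serves. Signal had a median of 236 at divergent and 238 at single starts, a difference far smaller than the quartiles of either (196 to 309 and 207 to 309).

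The typical summit lay well upstream of the annotated start. The median offset from the nearest start was −190 bp (order-statistic interval −215 to −169 bp, quartiles −296.5 to −111.5 bp). It was −167 bp (−180 to −148 bp) for next-ranked and −144 bp (−152 to −138 bp) for background promoter regions. Upstream summits made up 92.5% (88.6 to 95.2%) of promoter peaks, against 85.4% (82.1 to 88.1%) of the next-ranked and 80.3% (79.2 to 81.4%) of the background promoter regions. Within 100 bp of the start lay 23.2% (18.5 to 28.8%) of promoter peaks, against 31.7% (27.9 to 35.8%) and 40.2% (38.9 to 41.6%). The fullest stretch was from 200 to 101 bp upstream, with 74 promoter peaks, and the window downstream of the start held 19. In the replicates' own top lists the medians were −213 bp in replicate 1 and −198 bp in replicate 3 (−205.5 ± 10.6 bp, SD, n = 2).

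**Figure D2:**
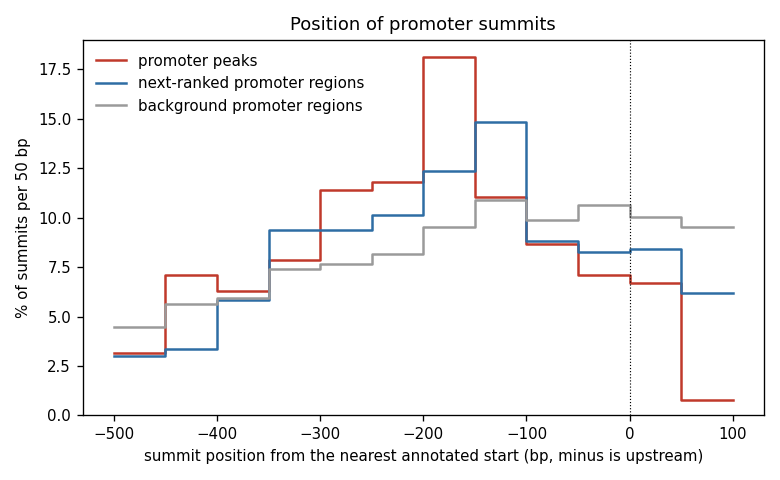
Share of summits in each 50 bp step from the nearest annotated start, for the 254 promoter peaks (red), 533 next-ranked promoter regions (blue) and 5037 background promoter regions (grey), with upstream to the left. The promoter peaks have their median at −190 bp and few summits past the start, while the background regions have theirs at −144 bp and continue across it.

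The window's limits were not marked by a step in signal. Just inside the upstream limit were adss-1 at −498 bp (signal 292), srx-28 at −491 bp (192) and bet-2 at −488 bp (221), and just outside it W07G4.2 at −505 bp (255), Y59A8B.24 at −509 bp (197) and eel-1 at −519 bp (222). Inside the downstream limit were F42A6.6 at 92 bp (286), tba-7 at 60 bp (435) and Y71F9AL.8 at 44 bp (191), and outside it Y56A3A.22 at 118 bp (273), tag-115 at 152 bp (236) and F28F8.7 at 163 bp (223). At the limit set by small noncoding RNA genes the signals differed more. ZK622.4 (863), hrpl-1 (348) and Y75B8A.23 (212) were kept at 113 to 114 bp, and fip-1 (471), wrt-3 (5009) and F55A11.11 (6244) were left out at 93 to 98 bp.

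Beyond that limit, signal did not follow the distance to small noncoding RNA genes. At 193 promoter peaks the nearest such gene was over 5000 bp away, and their median signal was 235. It was 243 for the 36 peaks at 1000 to 5000 bp, 293 for the 10 at 250 to 1000 bp and 252 for the 15 at 100 to 250 bp, with quartiles that overlap throughout. By chromosome, genes with a promoter peak made up 2.08% (1.60 to 2.70%) of those on III, 1.74% on II, 1.63% on I, 1.47% on X, 1.46% on IV and 1.10% (0.847 to 1.43%) on V.

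The lists with the highest shares of genes with a promoter peak were ribosomal proteins, chaperones, the respiratory chain and translation factors, which together make a minor part of the 305 genes. In 27 gene lists chosen by symbol, 89 of the 305 genes were listed (29.2%, 24.4 to 34.5%). Of all protein-coding genes, with or without a pooled region, 18.8% (18.3 to 19.4%) were listed. The lists were chosen with earlier results of these data known, so their shares describe and do not test. Both genes of a divergent pair count, so 1 peak can count in 2 lists, as at teg-1 with mcm-10 and hsp-110 with rpn-3. A gene is more likely to be counted where it has any pooled region at all, so list shares are given among genes with a region, beside 6.20% for all such genes. The cytosolic ribosomal proteins had 18 of 64 (28.1%, 18.6 to 40.1%), or 18 of 78 genes in all (23.1%). The heat shock proteins and chaperonins had 8 of 38 (21.1%, 11.1 to 36.3%), the respiratory chain and ATP synthase 6 of 30 (20.0%, 9.51 to 37.3%) and the translation factors 5 of 29 (17.2%, 7.60 to 34.5%). The splicing factors had 6 of 40 (15.0%, 7.06 to 29.1%) and the cell cycle and DNA replication list 6 of 44 (13.6%, 6.40 to 26.7%). These 6 intervals begin above 6.20%, with no adjustment for the number of lists. The same lists were also present at the next-ranked promoter regions. There they had 12, 6, 8, 7, 9 and 6 genes in that order, of 643 genes in all. At promoter peaks they had 18, 8, 6, 5, 6 and 6 of the 305. The counts at promoter peaks rest on the far part of the window. With a window from 200 bp upstream, the genes with a promoter peak numbered 143 in place of 305, with 2 ribosomal protein genes, 0 heat shock, 3 respiratory, 1 translation, 2 splicing and 3 cell cycle genes.

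**Figure D3:**
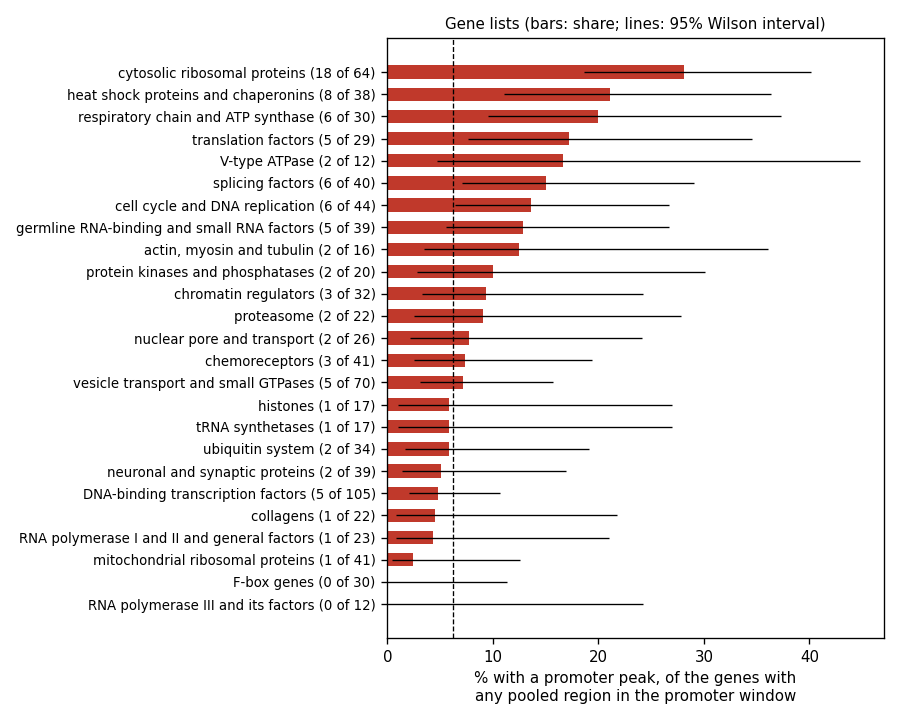
Share of genes with a promoter peak among the genes of each list that have any pooled region in the promoter window, for lists with at least 10 such genes (bars, with 95% Wilson intervals as lines). The dashed line marks 6.20%, the share over all 4917 genes with a region, and the ribosomal proteins stand at the top with 28.1%.

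The ribosomal protein genes with a promoter peak came from both subunits. The large subunit gave rpl-15, rpl-35, rpl-3, rpl-18A, rpl-38, rpl-12, rpl-22, rpl-14, rpl-11.2 and rpl-21, and the small subunit rps-3A, rps-19, rps-23, rps-20, rps-24, rps-28, rps-15 and rps-12. Signals ran from 185 to 797 with a median of 319, against 238 over all genes with a promoter peak, and the median offset was −287.5 bp, against −213 bp. The peak at rpl-35 had 710 (137 in replicate 1, 582 in replicate 3), that at rpl-3 had 677 (153 in replicate 1, 555 in replicate 3) and that at rps-3A had 558 (102 in replicate 1, 458 in replicate 3). In the replicates' own top lists 11 ribosomal protein genes were found in replicate 1 and 16 in replicate 3, of which 10 and 16 were among the 18 with a promoter peak. The summit of rps-3A also lies inside the unclassified noncoding RNA gene F56F3.11.

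Among the folding factors, cct-8, a subunit of the chaperonin that folds actin and tubulin, had the highest signal (438, at −441 bp). The Hsp70 gene hsp-1 had 381 (86.4 in replicate 1, 300 in replicate 3), hsp-90 366 (91.7 in replicate 1, 294 in replicate 3), dnj-13 350, the Hsp70 of the endoplasmic reticulum hsp-3 303, hsp-110 271, dnj-9 219 and dnj-29 183. Outside the symbol list, the divergent Hsp70 pair F44E5.4 and F44E5.5 shared a summit with 366 (58.4 in replicate 1, 316 in replicate 3), and ahsa-1, an activator of Hsp90, had 335. These genes, and Y22D7AL.10 above, were picked out after their values were seen. In the replicates' top lists the list had 5 genes in replicate 1 and 7 in replicate 3, of which 5 and 6 were among the 8 with a promoter peak.

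The translation and energy lists were carried mostly by replicate 3. The translation factors were iff-2 (an eIF5A gene, 341), eef-1A.2 (282), eef-2 (222), eef-1A.1 (217) and eif-3.C (200), with 0 among the highest regions of replicate 1 and 5 among those of replicate 3. The respiratory list comprised the ATP synthase gene atp-1 (310), the cytochrome c oxidase genes cox-5B (288), cox-5A (259) and cox-6B (180), ucr-2.2 of complex III (235) and the cytochrome c gene cyc-2.1 (234), with 1 among the highest regions of replicate 1 and 5 among those of replicate 3. The splicing factors were mog-4 (316), teg-1 (256), snr-1 (232), prp-8 (217) and the shared peak of rsp-2 and rsp-1 (209). Of these 6 genes 0 were among the highest regions of replicate 1 and 5 among those of replicate 3. The 1 splicing factor gene at the highest regions of replicate 1 had no promoter peak. For these 3 lists the count therefore rests on 1 replicate's ranking and on the pooled list.

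The cell cycle list held cdc-48.1 (485), the replication clamp pcn-1 (340), the kinetochore gene knl-3 (258), mcm-10 (256), the spindle checkpoint gene mdf-2 (240) and the cyclin cyb-3 (226), with 4 among the highest regions of replicate 1 and 5 among those of replicate 3. The list of germline RNA-binding and small RNA factors, chosen by symbol, had 5 of 39 genes (12.8%, 5.60 to 26.7%). These were puf-9 (334), ego-1 (333), mut-15 (273), ekl-4 (269) and pos-1 (192). The summits at mut-15, ekl-4 and pos-1 are shared with fib-1, rps-20 and vha-18 in that order. Vesicle transport genes numbered 5 of 70 (7.14%), led by sec-61.G (304), vps-37 (300) and vps-51 (286). The DNA-binding transcription factors had 5 of 105 (4.76%, 2.05 to 10.7%), namely efl-1 (331), ztf-7 (207), atf-6 (193), nhr-68 (188) and ztf-8 (183). The intervals of these last 3 lists include 6.20%.

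A complex that controls the cell cycle was noticed among the genes with a promoter peak and listed after the values were seen. The DRM complex, which holds an E2F and a retinoblastoma protein, represses genes of the cell cycle and the germline. Of its 8 genes 5 had a promoter peak, or 5 of the 6 with a region (83.3%, 43.6 to 97.0%), beside 6.20% of all genes with a region, and since the list was made because of these genes the share is a description only. With the window from 200 bp upstream 2 were left. The 5 were lin-54, which encodes its DNA-binding subunit (365), lin-53 (338), efl-1, its E2F (331), lin-35, its retinoblastoma protein (286), and lin-9 (200). At lin-54 the summit lies between both starts, at −26 bp from rpl-12 and −367 bp from lin-54. The summit at lin-53 (−225 bp) is shared with nra-2 (−242 bp). That at lin-35 (−237 bp) is shared with vps-51 (−181 bp), which is also counted among the vesicle transport genes. Position does not assign these shared peaks to the gene of the complex. In replicate 1 the signals of lin-54, lin-53, efl-1, lin-35 and lin-9 were 22.6, 71.1, 59.2, 49.5 and 12.9, and in replicate 3 they were 298, 279, 309, 255 and 193. Replicate 3 had all 5 in its top list, while replicate 1 had 2 and placed lin-54 at rank 5273 and lin-9 at rank 17207. The windows of efl-1, at chrV:16965796-16965896 on the minus strand, and of rpl-12 and lin-54, at chrIV:13240627-13240727 on the minus strand, are shown because the complex has an E2F, and neither holds the E2F-type core GCGCGAA. Capitals mark GCGCAC where it reads GTGCGC, the core TAACNG where it reads CAGTTA, and the word GCGACG.
efl-1: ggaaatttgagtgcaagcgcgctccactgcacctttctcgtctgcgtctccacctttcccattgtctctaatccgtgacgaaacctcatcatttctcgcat
rpl-12 and lin-54: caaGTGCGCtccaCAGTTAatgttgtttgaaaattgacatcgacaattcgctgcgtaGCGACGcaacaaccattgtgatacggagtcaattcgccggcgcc

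The other 18 lists had 0 to 3 genes with a promoter peak each, and every one of their intervals among genes with a region includes 6.20%. RNA polymerase III and its factors, which transcribe tRNA and U6 genes, had 0 of 21 genes (0 of 12 with a region, upper Wilson limit 24.2%), the F-box genes 0 of 354 (0 of 30, upper limit 11.4%), the named major sperm protein genes 0 of 31 (0 of 1) and the vitellogenins, which encode yolk proteins, 0 of 6 (0 of 3). The mitochondrial ribosomal proteins had 1 of 41 (2.44%, 0.432 to 12.6%), mrpl-32 (196). The chemoreceptors had 3 of 1292 genes but 3 of 41 with a region (7.32%, 2.52 to 19.4%), which were sri-5 (210), srh-16 (204) and srx-28 (192). Single genes were listed for the collagens (col-40, signal 190), histones (his-37, 275), tRNA synthetases (ears-2, 240) and polymerases I and II (rpb-11, 183), with shares from 4.35 to 5.88% of genes with a region. The V-type ATPase had 2 of 12 genes with a region (16.7%), vha-9 (256) and vha-18 (192), and the cytoskeleton list 2 of 16 (12.5%), tba-7 (435) and cap-2 (260). The kinases had 2 of 20 (10.0%), kin-14 (303) and kin-29 (248), the chromatin regulators 3 of 32 (9.38%), set-16 (281), jmjd-3.3 (230) and jmjd-1.2 (212), and the proteasome 2 of 22 (9.09%), rpn-3 (271) and rpn-11 (189). Nuclear transport had 2 of 26 (7.69%), npp-8 and imb-3 (209 each), the ubiquitin system 2 of 34 (5.88%), ubl-5 (242) and ubc-6 (203), and the neuronal genes 2 of 39 (5.13%), flp-23 (332) and twk-10 (219).

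Promoter peaks were usually matched in both replicates, but seldom near the top of both lists. A summit within 100 bp was found in replicate 1 for 234 promoter peaks (92.1%), in replicate 3 for 245 (96.5%) and in both for 227 (89.4%, 85.0 to 92.6%), against 91.7% of all 1550 reproducible peaks. No match in either was found for 2, shc-3 and the weaker summit of snu-23. A match among the 1550 highest regions of both replicates was found for 80 promoter peaks (31.5%, 26.1 to 37.4%), against 67.0% of all reproducible peaks. The median rank of a matched promoter peak was 1714 in replicate 1 (signal 46.0) and 1274 in replicate 3 (signal 206). Best in both by the worse rank were the 5 peaks named first, and after them came W09G10.9 (rank 691 in replicate 1 and 665 in replicate 3) and Y43F8B.17 (774 and 582 in the same order). Across the 227 promoter peaks in both lists Spearman's rho of the signals was 0.53, a description over sites that share both libraries.

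**Figure D4:**
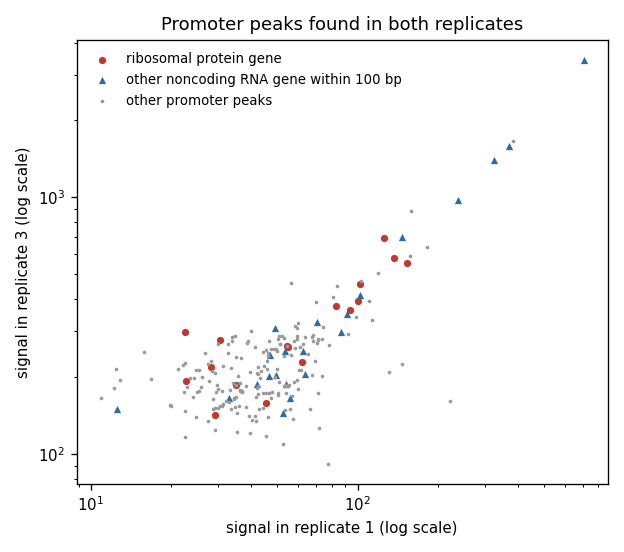
Signal of the 227 promoter peaks with a match in both replicates, replicate 1 on the horizontal and replicate 3 on the vertical log axis, each on its own scale. Red circles are ribosomal protein genes, blue triangles are other peaks within 100 bp of a noncoding RNA gene outside the small classes, and grey points are the rest. The strongest sites lie on 1 rising band, up to 704 and 3409 for T13C5.6, while the weak sites form a cloud.

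At equal signal the match in both whole lists was about as frequent at promoter peaks as elsewhere, and the values for both top lists were lower within overlapping intervals. Promoter peaks were divided by signal into 4 groups of about equal number and set beside reproducible peaks elsewhere of the same signal range, a comparison added after the data were seen. In the 3 weaker groups a match in both whole lists was found for 85.9%, 84.1% and 92.1% of promoter peaks, and for 82.1%, 83.5% and 89.9% of peaks elsewhere, with overlapping intervals. A match in both top lists was found for 3.13% (0.861 to 10.7%), 11.1% (5.49 to 21.2%) and 31.7% (21.6 to 44.0%) of promoter peaks, and for 10.5% (5.82 to 18.3%), 19.6% (12.9 to 28.6%) and 42.9% (34.3 to 51.8%) of peaks elsewhere. These intervals overlap in each group. Of the 305 genes, 103 were also at the highest regions of replicate 1, 241 at those of replicate 3 and 88 at both.

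**Figure D5:**
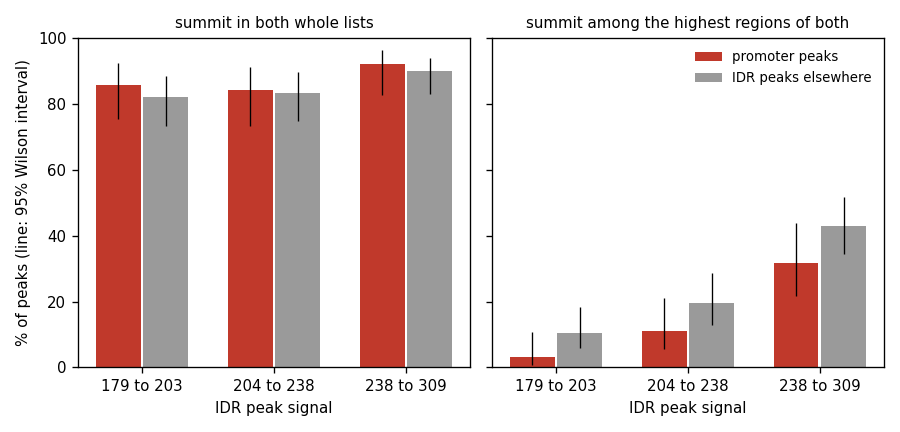
Share of promoter peaks (red) and reproducible peaks elsewhere (grey) with a match in both replicates' whole lists on the left and among the 1550 highest regions of both on the right, in the 3 weaker groups of promoter peak signal, with 95% Wilson intervals. On the left the pairs of bars stand between 82.1% and 92.1%, and on the right the promoter bars are at 3.13%, 11.1% and 31.7%.

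Promoter peaks were rich in G and C, and the sequences found at them have to be read beside that. Within 50 bp of the summit G and C made up a mean of 47.9% at promoter peaks, 44.6% at next-ranked and 38.8% at background promoter regions, and 34.3% in windows of equal length centred 190 bp upstream of all 19971 starts. The mean was 46.8% at reproducible peaks at small noncoding RNA genes, close to that of promoter peaks, and 42.9% at those elsewhere. Signal did not follow this content, with a median of 235 in the 142 promoter peaks at or above their median content and 240 in the 112 below it. All words of 31 bases in the window were unique in the genome for 239 promoter peaks, and under 50% of them were for 4, at C01G10.14, T02E1.2, snu-23 and Y62F5A.12.

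Of the 17 sequences searched on both strands within 50 bp of the summit, CGCGCA was held by 16.1% (12.1 to 21.2%) of promoter peaks, 12.0% (9.52 to 15.0%) of next-ranked and 5.10% (4.53 to 5.74%) of background promoter regions, and by 2.39% of all promoter windows. GCGCAC, which overlaps it by 5 bases, was held by 15.7%, 12.0%, 5.02% and 2.25% in the same order. CACTCG was held by 11.4% (8.07 to 15.9%) of promoter peaks, 4.88% (3.35 to 7.05%) of next-ranked and 2.96% of background promoter regions, and by 1.83% of all promoter windows. CGGCCA was held by 10.2%, 5.82%, 3.04% and 1.67%, and GGCCGA, whose reverse complement TCGGCC overlaps it, by 8.66%, 4.32%, 2.66% and 1.47% in that order. These 5 and ACCACT (5.91%, 4.32%, 3.08% and 3.17%) came from earlier results on these peaks, so their shares describe and do not test. CACTCG is the one of the 6 whose interval at promoter peaks lies wholly above that of the next-ranked regions, but it was about as frequent at reproducible peaks elsewhere (9.81%) and at small noncoding RNA genes (12.2%). CGGCCA was held by 13.9% and 16.7% of those, and GGCCGA by 12.0% and 14.7%, so both had higher values there than at promoter peaks. CGCGCA was held by 9.97% and 3.52% of them and GCGCAC by 7.17% and 4.74%, below the values at promoter peaks.

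Among the sequences of general promoters, those rich in A and T were less frequent at promoter peaks than at background promoter regions. The TATA core TATAAA was held by 5.12% (3.02 to 8.56%) of promoter peaks, 6.19% of next-ranked and 10.0% of background promoter regions, and by 12.8% of all promoter windows. A run of 6 T was held by 22.0%, 27.4%, 37.1% and 45.6% in the same order, and TTTCAG, found at splice acceptors and at many trans-splice sites, by 8.27%, 10.5%, 17.3% and 16.3%. GAGAGA was held by 17.7% of promoter peaks, 16.3% of next-ranked and 11.4% of background promoter regions, and by 7.83% of all promoter windows, and the Sp1-like GGCGGG by 8.27%, 5.25%, 3.55% and 2.18%. TAACNG, the core of Myb-type sites, was held by 19.3% (16.4 to 22.5%) of reproducible peaks at small noncoding RNA genes and 11.2% of those elsewhere. It was held by 6.30% (3.91 to 9.99%) of promoter peaks, 6.38% of next-ranked and 9.17% of background promoter regions, and by 9.90% of all promoter windows. The heat shock core GAANNTTC was held by 6.30%, 3.19%, 5.74% and 6.60%, TGATAA by 5.51%, 4.50%, 9.45% and 11.2%, the E box core CACGTG by 3.54%, 4.50%, 2.38% and 1.59%, GCGCGAA by 2.76%, 4.32%, 1.91% and 0.671%, and the B box within 50 bp by 4.33%, 2.44%, 3.39% and 3.28%.

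The words read off the 4 ribosomal windows were then counted in the other 14 ribosomal promoter peaks, since their presence in the first 4 follows from how they were chosen. TACGGT, in 3 of the 4, was held by 8 of the 14 (57.1%, 32.6 to 78.6%). It was held by 20 of the 236 promoter peaks at other genes (8.47%, 5.55 to 12.7%), by 10 of 56 background regions at ribosomal protein genes (17.9%, 10.0 to 29.8%) and by 3.19% of all promoter windows. AGTGTA, in all 4, was held by 2 of the 14 (14.3%, 4.01 to 39.9%), against 12 of 236 (5.08%, 2.93 to 8.68%), with overlapping intervals, and 0 of 56 ribosomal background regions. GAGCGT was held by 1 of the 14, against 19 of 236 and 1 of 56, GCGACG by 1 of the 14, against 18 of 236 and 3 of 56, and GCATTG by 0 of the 14, against 9 of 236 and 1 of 56. TACGGT is thus the one of the 5 words whose interval in the 14 lies above that of the promoter peaks at other genes. At least 3 of the 5 words were held by 1 of the 14, rpl-38, and by 1 of the 236, Y82E9BR.3.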

How the data were processed

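Peak lists of 2 biological replicates in 1 group were used as deposited. Reads of both replicates and of controls were aligned by the authors to builds ce10 and ce11, according to the deposited descriptions of the files, and ranked peaks with background regions, per replicate and pooled, went into a filter on the irreproducible discovery rate (IDR). Which aligner, peak caller and IDR cut-off were used is not given in the sources used here. For the authors' signal values no normalisation is stated, so they were set side by side within 1 list at a time. The deposited −log10 q-value was not used. The lists give no read depth, so Wilson intervals (95%) cover counting of regions only.

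Summits were placed in ce11, which is WBcel235, against 19971 protein-coding genes and 1316 small noncoding RNA genes of the RefSeq annotation (WormBase release 298), with 1-based coordinates. The ce10 IDR list, of 1570 peaks, gave its length only. A summit within 100 bp counted as a match. Background regions were pooled regions with no IDR summit within 100 bp, and the next-ranked ones were the 1550 of highest signal. The promoter windows of all genes were cut from the genome, since no promoter table was used here, and the promoter sequences are likewise from the ce11 genome of RefSeq. Regions are not replicates and there is no other condition, so no test was run. Replicates 1 and 3 form 1 group, so their numbers pair nothing, and their lists held 23931 and 30000 regions.

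The promoter peaks, the 27 gene lists and the 17 searched sequences were chosen with earlier results of these data known. Lists go by gene symbol and miss genes without one. Chosen after values were seen were the DRM list, the 5 ribosomal words and the comparison at equal signal. Named were the 25 strongest promoter peaks, up to 5 genes of each list by signal, the 5 strongest divergent pairs, genes with a pair of peaks, the 5 peaks best placed in both replicates, and the 3 peaks nearest to each limit. Ribosomal, heat shock and respiratory genes and the splicing and cell cycle lists were named in full, which goes past that rule. The placing rule was tested on simulated summits. The tables were computed in Python 3.11.15 with pandas 2.3.3 and numpy 2.4.6, intervals with scipy 1.17.1, and plots drawn with matplotlib 3.10.9.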

Additional observations from a re-analysis of the deposited data

How the results depend on the processing

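No paired analysis was possible because both replicates belong to 1 group. A window from 200 bp upstream gave 133 promoter peaks, 8.58% of the reproducible peaks, 6.77% of them divergent, a median offset of −114 bp and 28 listed genes, 2 of them ribosomal (18 in the full window) and 0 heat shock (8). A window from 1000 bp gave 21.9%, 27.1% divergent and −264.5 bp. These offsets follow from the window itself. The 775 strongest reproducible peaks gave 18 promoter peaks (2.32%), a median signal of 769, 5.56% divergent, −276.5 bp and 4 listed genes, from fewer peaks by construction. Without one or the other replicate, the 1550 highest regions of the remaining replicate's own list stood in for the reproducible peaks. Promoter regions among them then ranged from 126 (without replicate 3) to 223 (without replicate 1), and their share from 8.13 to 14.4%. Their match in both lists ranged from 81.7 to 91.9%, where the match in their own list was given in advance. The divergent share ranged from 13.5 to 22.4%, the median offset from −213 to −198 bp and the listed genes from 38 to 81. For these counts and shares the cause was not tested. A match in both lists was found for 71.3% with summits within 50 bp, 96.5% within 200 bp and 98.4% with any overlap of regions, since a looser match admits more. At least 1 of the 6 sequences from earlier results was held by 45.3% of promoter peaks within 50 bp and 55.1% within 100 bp, against 17.3% and 29.0% of background promoter regions. Other distances from small noncoding RNA genes and merging overlapping regions moved none of the main values by more than their interval, or 1.5 times for counts. Of the values of single gene lists and sequences under all alternatives, 85 moved past these bounds and 156 did not.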
